A study of Caenorhabditis elegans with 2 samples.

Results

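The chaperone and chaperonin genes described here are the protein-coding genes of Caenorhabditis elegans whose symbol begins with hsp-, cct-, dnj- or pfd- in the Ensembl annotation of assembly WBcel235. There were 65 of them among 19973 protein-coding genes on the nuclear chromosomes. They fell into 5 classes, with 7 stress-induced genes (6 hsp-16 genes and hsp-70), 15 other hsp- genes, here called constitutive, 8 cct- genes for subunits of the cytosolic chaperonin, 6 pfd- genes for prefoldin and 29 dnj- genes for J proteins. The class of other hsp- genes is defined by its symbols, and some of its members, such as hsp-4 and hsp-6, are themselves raised by stress in an organelle. Symbols choose genes by name, so chaperones that carry other names are not members.

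The deposited data are ChIP-seq peaks, from DNA sequenced after immunoprecipitation of chromatin, for the homeodomain protein CEH-88 in L1 larvae, the first larval stage, at an age of 6 h. All animals were of strain OP593, in which the transgene wgIs593 carries ceh-88 fused to TY1 EGFP 3xFLAG along with unc-119(+), in an unc-119 (tm4063) background, and all had been starved after bleaching. The 2 biological replicates form 1 group, chromatin was sonicated to 200 to 800 bp, and an anti-GFP antibody recovered the tagged protein. No untagged, fed or heat-shocked larvae were analysed here, so there is no comparison between conditions, and binding by CEH-88 cannot be told apart from recovery that any tagged protein would give. One transgenic strain stands for the factor, and whole larvae mix all cell types.

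Molecular chaperones keep proteins folded. Hsp70 proteins bind and release unfolded stretches, J proteins deliver clients to Hsp70 and start its ATP cycle, Hsp110 recharges it, and Hsp90 completes the folding of many signalling proteins. Prefoldin hands newly made actin and tubulin to the ring-shaped cytosolic chaperonin, while mitochondria use a chaperonin of their own, Hsp60 with the Hsp10 lid. Small heat shock proteins hold unfolded proteins without ATP. After heat, the factor HSF-1 binds heat shock elements, inverted repeats of the unit GAA and its complement TTC, and turns on the hsp-16 genes and hsp-70, which are nearly silent in unstressed worms.

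Peaks came from 4 lists past the authors' threshold on reproducibility between data sets, with 1171 in the conservative list of the whole series, 1349 in a second whole-series list, 1128 in replicate 1 and 698 in replicate 2. A gene was called bound when a peak summit fell within a window of 1000 bp upstream to 200 bp downstream around any of its annotated transcript starts, and the conservative list was used unless another is named. The signal value is the deposited measure of peak strength, with no stated unit and no stated scale between lists. No source used here gives a read depth, so the depth behind each peak is unknown. The exact 95% intervals below cover the counting of genes only.

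Of the 65 genes, 19 were bound (29.2%, exact 95% interval 18.6% to 41.8%), against 4.73% of all protein-coding genes. The bound genes were the constitutive hsp-1, hsp-3, hsp-60, hsp-90 and hsp-110, the chaperonin genes cct-1, cct-7 and cct-8, the prefoldin genes pfd-1, pfd-5 and pfd-6, and dnj-9, dnj-11, dnj-13, dnj-14, dnj-19, dnj-22, dnj-28 and dnj-29. None of the 7 stress-induced genes was bound. By class, 5 of 15 constitutive genes (33.3%), 3 of 8 chaperonin genes (37.5%), 3 of 6 prefoldin genes (50%) and 8 of 29 J protein genes (27.6%) had a summit. With so few genes in a class the intervals are wide, from 11.8% to 61.6% for the constitutive genes and from 8.52% to 75.5% for the chaperonin genes, and the classes cannot be ranked by these shares.

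**Figure D1:**
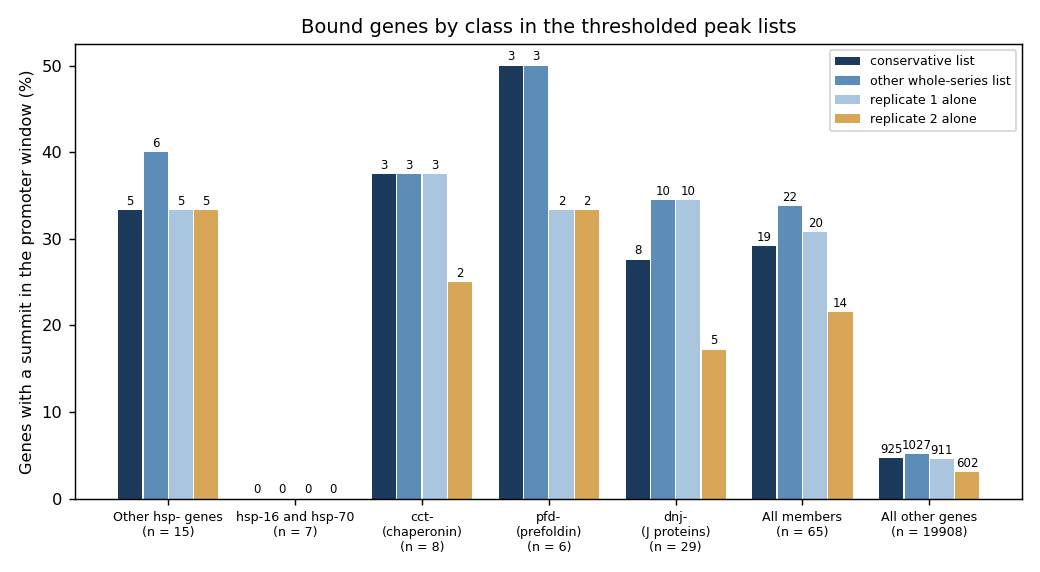
Percent of genes with a peak summit in the promoter window (vertical axis) by class, for each of the 4 thresholded lists, with the number of bound genes above each bar. The hsp-16 and hsp-70 genes have 0 in each list, and the 65 genes as a whole stand at 21.5% to 33.8%, above the bars of all other protein-coding genes.

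The sequences at the strongest summits off the first chromosome are shown to make the bound promoters comparable with an hsp-16 promoter that was not bound. Each is the 100 bases around the conservative summit, read 5′ to 3′ on the strand of the named gene from the RefSeq copy of assembly ce11. cct-7 and pfd-5 were added because their windows hold paired heat shock units. Capitals mark GAANNTTC or TTCNNGAA, pairs of heat shock units in either phase, and CTGCGTCT, an 8-base word searched in all windows.
hsp-60, chrIII:1619085-1619184, plus strand: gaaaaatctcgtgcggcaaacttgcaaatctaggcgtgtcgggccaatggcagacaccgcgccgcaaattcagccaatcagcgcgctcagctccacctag
hsp-1, chrIV:17278515-17278614, plus strand: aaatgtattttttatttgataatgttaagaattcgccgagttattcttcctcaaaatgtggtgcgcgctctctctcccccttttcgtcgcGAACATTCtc
hsp-90, chrV:14685732-14685831, plus strand: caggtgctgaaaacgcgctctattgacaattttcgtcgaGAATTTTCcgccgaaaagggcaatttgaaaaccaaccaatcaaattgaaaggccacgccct
hsp-3, chrX:6092130-6092229, minus strand: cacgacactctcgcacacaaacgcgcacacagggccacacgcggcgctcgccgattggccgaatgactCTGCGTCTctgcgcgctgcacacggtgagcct
hsp-110, chrIII:8447128-8447227, minus strand: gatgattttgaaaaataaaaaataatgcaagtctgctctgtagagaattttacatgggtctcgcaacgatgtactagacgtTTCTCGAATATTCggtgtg
cct-8, chrIV:1094300-1094399, minus strand: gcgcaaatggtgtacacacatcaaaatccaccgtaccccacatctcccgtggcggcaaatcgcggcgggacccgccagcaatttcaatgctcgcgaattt
cct-1, chrII:8185156-8185255, plus strand: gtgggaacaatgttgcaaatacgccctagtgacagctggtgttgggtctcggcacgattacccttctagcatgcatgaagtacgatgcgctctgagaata
cct-7, chrV:1871944-1872043, plus strand: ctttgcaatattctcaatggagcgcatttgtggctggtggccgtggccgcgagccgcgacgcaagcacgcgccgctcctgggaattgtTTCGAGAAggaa
pfd-1, chrIV:11149745-11149844, plus strand: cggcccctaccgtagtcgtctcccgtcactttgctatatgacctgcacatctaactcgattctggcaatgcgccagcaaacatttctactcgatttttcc
pfd-5, chrIII:7199000-7199099, minus strand: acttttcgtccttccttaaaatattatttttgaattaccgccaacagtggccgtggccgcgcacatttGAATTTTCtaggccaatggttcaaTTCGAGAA
dnj-13, chrII:11545443-11545542, plus strand: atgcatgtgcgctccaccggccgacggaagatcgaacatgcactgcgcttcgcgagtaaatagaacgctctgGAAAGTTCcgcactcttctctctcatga
The divergent hsp-16.2 and hsp-16.41 genes share the 220 bases between their starts, shown on the plus strand with the same marks.
hsp-16.2 to hsp-16.41, chrV:1804958-1805177, plus strand: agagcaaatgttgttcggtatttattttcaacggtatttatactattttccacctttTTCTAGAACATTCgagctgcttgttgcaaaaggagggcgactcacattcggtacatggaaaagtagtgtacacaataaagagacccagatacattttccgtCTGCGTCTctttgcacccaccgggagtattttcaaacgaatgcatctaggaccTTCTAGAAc
The windows at hsp-60, hsp-3, cct-8, cct-1 and pfd-1 hold neither kind of pair. The hsp-110 window and the hsp-16.2 region each hold a run of 3 alternating units (TTCTCGAATATTC and TTCTAGAACATTC). The printed hsp-16.2 region stops just before the hsp-16.41 start. From 250 bp upstream to 50 bp downstream of the gene's 5′ end, hsp-110, hsp-16.2 and hsp-16.41 each held 2 such runs.

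Among the constitutive genes the strongest peaks stood at chaperones of the cytosol and of mitochondria. At hsp-60, the mitochondrial chaperonin, the conservative signal was 543.8 (rank 24 of 1171), with 274.2 in replicate 1 and 280.2 in replicate 2. At hsp-1, the constitutive Hsp70 of the cytosol, it was 508.0 (rank 33), with 281.6 and 230.1. These were the highest values among the members, and the replicates lay close to each other at both genes. hsp-90, the cytosolic Hsp90, had a signal of 432.1 (rank 53), from 238.3 in replicate 1 and 179.5 in replicate 2. hsp-110, the nucleotide exchange factor of Hsp70, had 261.5 (rank 147), from 160.4 and 114.5. All 3 genes listed for the constitutive cytosolic Hsp70, Hsp90 and Hsp110 machines were thus bound, against 4.73% of all protein-coding genes. The list was made with earlier results known and leaves out the heat-inducible hsp-70, which was not bound. Counting each summit only for its nearest gene left 1 of the 3, hsp-1. hsp-3, one of a pair of BiP genes that encode the Hsp70 of the endoplasmic reticulum, had 294.8 (rank 120), from 204.6 in replicate 1 and 110.2 in replicate 2.

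The other hsp- genes of the endoplasmic reticulum and mitochondria, hsp-4, hsp-6 and hsp-75, were not bound. hsp-4, the BiP gene that the unfolded protein response raises, had no region in either replicate's ranked list, which also holds regions far below the threshold, and its whole-series region had a signal of 4.27 and a score of 10. The lowest score in the conservative list was 830. hsp-6, the mitochondrial Hsp70, had a region of 25.2 in replicate 1 and 9.44 in replicate 2. It had a peak summit only in the second whole-series list, with a signal of 21.3, rank 1297 of 1349 and a summit 183 bp downstream of the start, although a conservative peak overlapped its window by at least 1 bp. hsp-75, the mitochondrial Hsp90, had 17.5 and 16.8 with a whole-series score of 106. Within the hsp- genes, members of one compartment therefore lay at both ends of the range, with hsp-3 and hsp-60 high and hsp-4, hsp-6 and hsp-75 low in both replicates.

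None of the 7 small heat shock genes with an hsp- symbol outside the hsp-16 group was bound. sip-1, a small heat shock gene with another name, was bound and is described below. hsp-25 reached 22.3 in replicate 1 and 32.3 in replicate 2, and hsp-43 reached 23 and 19.6. hsp-12.6 had 7.32 and 21.9. The remaining small heat shock genes were lower or lacked regions. hsp-12.3 had 10.5 and hsp-12.2 had 6.36 in replicate 1 with no region in replicate 2, hsp-17 had 5.1 in replicate 2 with none in replicate 1, and hsp-12.1 had none in either. The lowest values at any bound member were 52.9 in replicate 1 and 28 in replicate 2, so of these genes only hsp-25 overlapped the bound members, in replicate 2.

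At the stress-induced genes, 0 of 7 had a summit in each of the 4 lists, which allows a share of up to 42.9% by the limit of 3 counts. The 6 hsp-16 genes share promoters in divergent pairs, so the 7 genes are not independent and this limit is too low. The annotation gives the symbol hsp-16.1 to 2 genes and hsp-16.48 to 2 others, which form a pair of divergent promoters on chromosome V, while hsp-16.2 and hsp-16.41 form a further divergent promoter there. All 6 encode small heat shock proteins. hsp-16.2 and hsp-16.41 shared a region with a signal of 17.1 in replicate 1 and had none in replicate 2. hsp-70, a heat-inducible Hsp70, had 8.87 in replicate 1 and 15.5 in replicate 2. The hsp-16.1 gene WBGene00002015 had 32.1 in replicate 1, the highest value in the class, but 5.06 in replicate 2, and its whole-series score was 21. WBGene00002017, the other hsp-16.1 gene, had 4.77 and 9.35, and neither hsp-16.48 gene had a region in either replicate. The windows of the hsp-16.48 genes cover the bases between the divergent starts. The summits counted for both hsp-16.1 genes therefore lay outside that shared stretch.

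Repeated sequence touches part of this class. In the 1000 bp before and 200 bp after the 5′ ends of the hsp-16.1 genes 96.4% and 93.1% of all 50-base words occur more than once in the genome, and in those of both hsp-16.48 genes 100%. How the authors treated reads with more than 1 position is not stated in the sources used here, and its part in the missing peaks of these genes was not tested. The windows of hsp-16.2, hsp-16.41 and hsp-70 hold 0% repeated words, and these genes were not bound either. Among the 19 bound members the highest share of repeated words was 12.5%, at dnj-28.

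Other stress-inducible Hsp70 genes gave a different picture. F44E5.4 and F44E5.5, a divergent pair of heat-inducible Hsp70 genes whose symbols kept them out of the set, shared a peak on chromosome II from 11759284 to 11759679 with a signal of 339.7 (rank 86). It was present in both replicates, at 220.3 and 122.4, and lay 171 bp from the start of F44E5.4 and 180 bp from that of F44E5.5. In the whole windows of these 2 genes 73.8% of 50-base words occur more than once. The share of repeated words within the peak itself was not measured. Absence of peaks at hsp-70 and the hsp-16 genes was thus not shared by all heat-inducible chaperone genes.

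**Figure D2:**
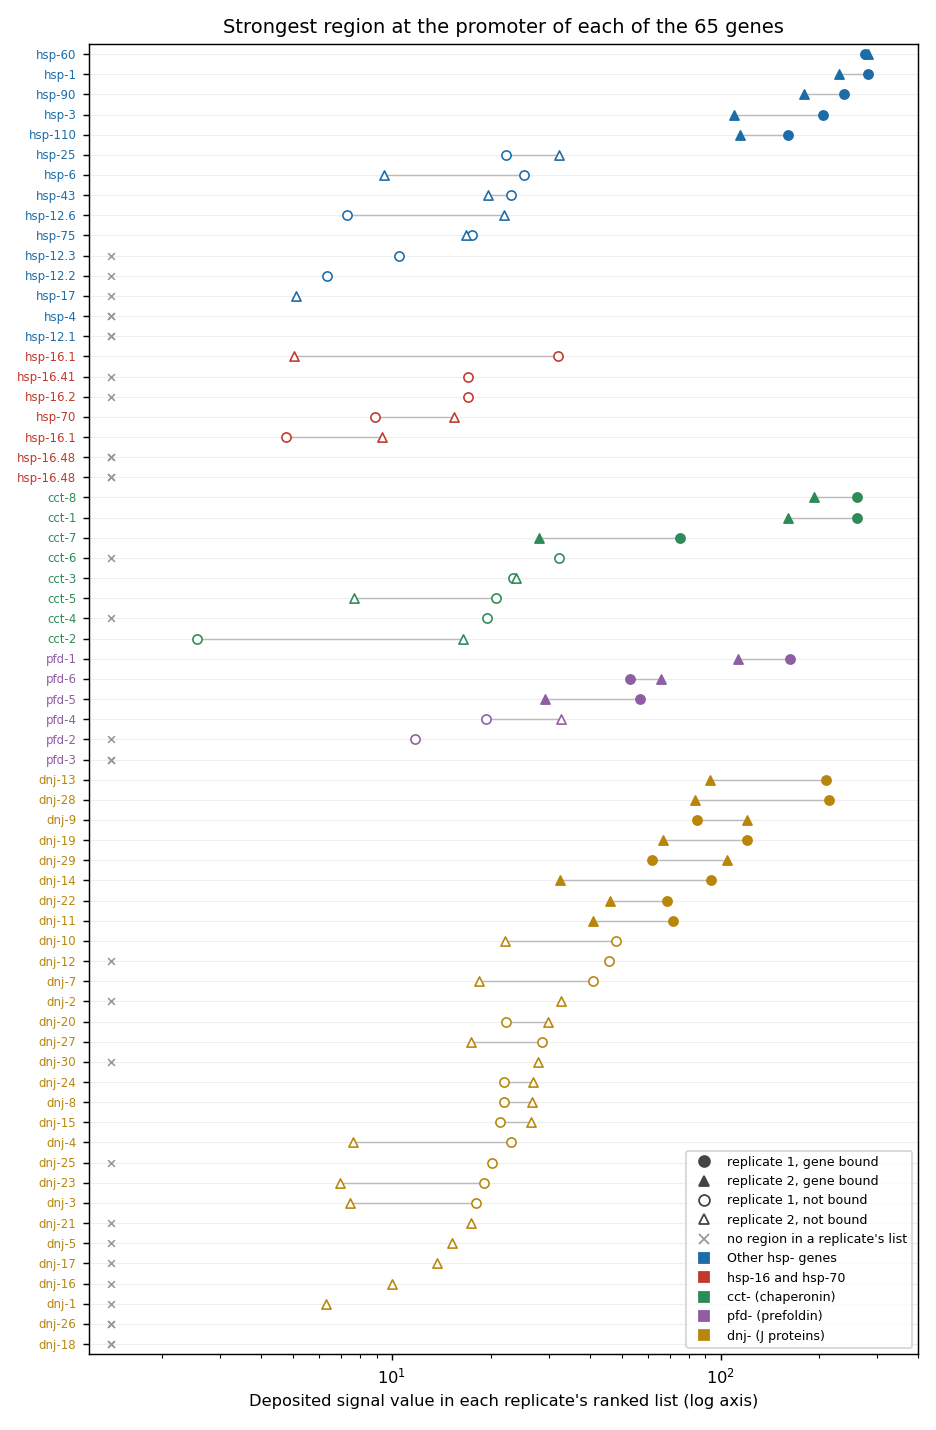
Signal of the strongest region at the promoter (horizontal log axis, deposited signal value) for each of the 65 genes. For bound genes this region overlaps the conservative peak, and for unbound genes its summit lies in the promoter window. Circles are replicate 1, triangles are replicate 2 and crosses mark a replicate's ranked list without a region. Filled symbols are bound genes. hsp-60 is highest in replicate 2 at 280.2 and hsp-1 in replicate 1 at 281.6, and no unbound gene exceeds 48.1.

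The cytosolic chaperonin is a ring of subunits encoded by cct-1 to cct-8, and its genes split into bound and unbound members although a ring contains every subunit. cct-8 had a conservative signal of 452.7 (rank 49), from 261.0 in replicate 1 and 191.9 in replicate 2. cct-1 had 420.4 (rank 56), from 260.6 and 160.0. cct-7 was much weaker, at 97 (rank 730), and had a peak of its own only in replicate 1 (75.4, against 28 in replicate 2). Its score of 838 was just above the lowest score of the list. The other subunit genes stayed far below. cct-3 had the highest score among them, 332, with 23.4 in replicate 1 and 23.9 in replicate 2. cct-2 had 2.55 and 16.5, and cct-5 had 20.7 and 7.69. cct-4 and cct-6 had 19.5 and 32.2 in replicate 1 and no region in replicate 2. Signals at cct-8 and cct-1 thus lay above those of every unbound subunit gene in both replicates.

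Prefoldin, which has a subunit for each pfd- gene, showed the same kind of split at lower signal. pfd-1 had 271.5 (rank 137), from 162.3 in replicate 1 and 113.1 in replicate 2, and was a peak in both. pfd-6 had 110.5 (rank 621), from 52.9 and 65.9, and passed the threshold on its own only in replicate 2. pfd-5 had 86.3 (rank 834), the lowest signal of any bound member, from 56.9 and 29.2, and passed on its own only in replicate 1. pfd-1 alone of the 3 was bound in all 4 lists. pfd-4 came nearest among the others, with 19.4 in replicate 1, 32.7 in replicate 2 and a score of 175. pfd-2 had 11.8 in replicate 1 and no region in replicate 2, and pfd-3 had no region in either. The value of pfd-4 in replicate 2 exceeded that of pfd-5, so in that replicate bound and unbound prefoldin genes overlapped.

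J protein genes had the most members and a middle range of signals, with a median of 173 over the 8 bound ones, against 432.1 for the constitutive hsp- genes, 420.4 for the chaperonin genes and 110.5 for prefoldin. dnj-13, whose product works with HSP-1 and HSP-110 to dissolve protein aggregates, was highest at 303.6 (rank 114), from 209.1 in replicate 1 and 93.2 in replicate 2. dnj-28 followed at 292.2 (rank 121), from 213.1 and 83.6. Both were stronger in replicate 1. dnj-9 had 210.9, from 84.9 and 120.3, and dnj-29, the gene for the Sec63 J protein of the endoplasmic reticulum, had 165.4, from 62.1 and 104.6. These lay higher in replicate 2. dnj-19, which encodes a class A J protein of the cytosol, had 180.7, from 120.7 and 66.7. dnj-13, dnj-28, dnj-9, dnj-19 and dnj-29 were peaks in both replicates.

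The remaining bound J protein genes passed on their own only in replicate 1. dnj-14, the gene for the cysteine string protein of synaptic vesicles, had 126.3 (rank 514), from 93.6 in replicate 1 and 32.5 in replicate 2, and its replicate summits lay 119 bp apart. A second conservative peak in its window had a signal of only 2.49 (rank 1169). dnj-22 had 118.8, from 68.7 and 46.2, and dnj-11, whose product is related to ribosome-associated J proteins, had 107.6, from 71.9 and 40.8. In the conservative list and in replicate 2 all 3 were weaker than each J protein gene that passed in both replicates, whereas in replicate 1 dnj-14 lay above dnj-9 and dnj-29, and dnj-22 and dnj-11 above dnj-29.

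Of the 21 J protein genes that were not bound, 2 had a peak in other lists. dnj-10, which encodes a mitochondrial J protein, had the highest score of any unbound member, 399, with 48.1 in replicate 1 and 22.1 in replicate 2. It was a peak in replicate 1 alone (rank 969) and in the second whole-series list (64.9, rank 1184). dnj-12, a class A J protein gene like dnj-19, had 45.7 in replicate 1 and no region in replicate 2. It was a peak in replicate 1 alone (rank 1004) and in the second whole-series list (106.0, rank 678). The next scores were 353 at dnj-20 (22.3 and 29.9 in replicates 1 and 2), 286 at dnj-15 (21.4 and 26.5), 150 at dnj-7 (41 and 18.4) and 78 at dnj-23 (19.1 and 6.94). In replicate 1 each of these was below the lowest bound member.

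Over the whole set, bound members had a median signal of 261.5 (86.3 to 543.8), against 133.1 over the 925 other bound genes. Among the strongest 117 peaks of the list were 6 of the 19 (31.6%), against 112 of the 925 (12.1%). The 46 members without a conservative peak mostly had lower signals than the bound members. Of these, 31 had a region in replicate 1, with a median signal of 20.7 and a highest of 48.1, against a median of 160.4 and a lowest of 52.9 in the bound members. In replicate 2, 30 had a region, with a median of 17.1 and a highest of 32.7, against a median of 104.6 and a lowest of 28. The groups did not overlap in replicate 1 and overlapped in replicate 2, where cct-7, pfd-5 and dnj-14 were as low as unbound members. The whole-series region of unbound dnj-12 had a signal of 106.0 and a score of 32. That signal was above the conservative signals of bound cct-7 (97) and pfd-5 (86.3). The bound and unbound groups were set by a threshold on these peak calls, so the comparison is a description of them.

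The replicates differed in how strongly they marked the set. Of the 19 bound members 15 had the higher signal in replicate 1 and 4 in replicate 2. Their log2 ratio of replicate 1 to replicate 2 had a median of 0.57 (SD 0.63, n = 19 genes), from -0.75 at dnj-29 to 1.52 at dnj-14. Over the 1152 peaks with a region in both replicates the median was 0.36 (SD 0.50), so the offset towards replicate 1 was present in the lists as a whole. Whether the members differ from it was not tested. In replicate 1 alone 20 members were bound (30.8%, against 4.66% of all genes), and in replicate 2 alone 14 (21.5%, against 3.08%). Replicate 2 lost cct-7, dnj-11, dnj-14, dnj-22 and pfd-5, and replicate 1 lost pfd-6 and gained dnj-10 and dnj-12. The second whole-series list had 22 members (33.8%, against 5.25%), among them all 19. A core of 13 was bound in all 4 lists: hsp-1, hsp-3, hsp-60, hsp-90, hsp-110, cct-1, cct-8, pfd-1, dnj-9, dnj-13, dnj-19, dnj-28 and dnj-29.

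The summits lay upstream of the genes. All 19 were upstream of the nearest start, by 56 bp at hsp-3 to 607 bp at hsp-60, with a median of 260 bp, and 13 of the 19 lay 200 to 450 bp away. The 925 other bound genes had a median of 248 bp and 94.8% of their summits upstream, so the members' positions were close to those of bound genes at large. Of the 19 summits 16 were intergenic, 2 in an intron and 1 in a 5′ UTR. At hsp-90 the peak (chromosome V, 14685672 to 14685871) lay 378 bp upstream of one annotated start and 864 bp downstream of another, in an intron of the longer transcript. At dnj-13 the intron belonged to a neighbouring gene, and at dnj-19 the UTR was that of nhr-47, a nuclear receptor gene whose start was 27 bp away. Replicate summits were a median of 14 bp apart, and at 17 of the 19 genes they lay within 50 bp.

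**Figure D3:**
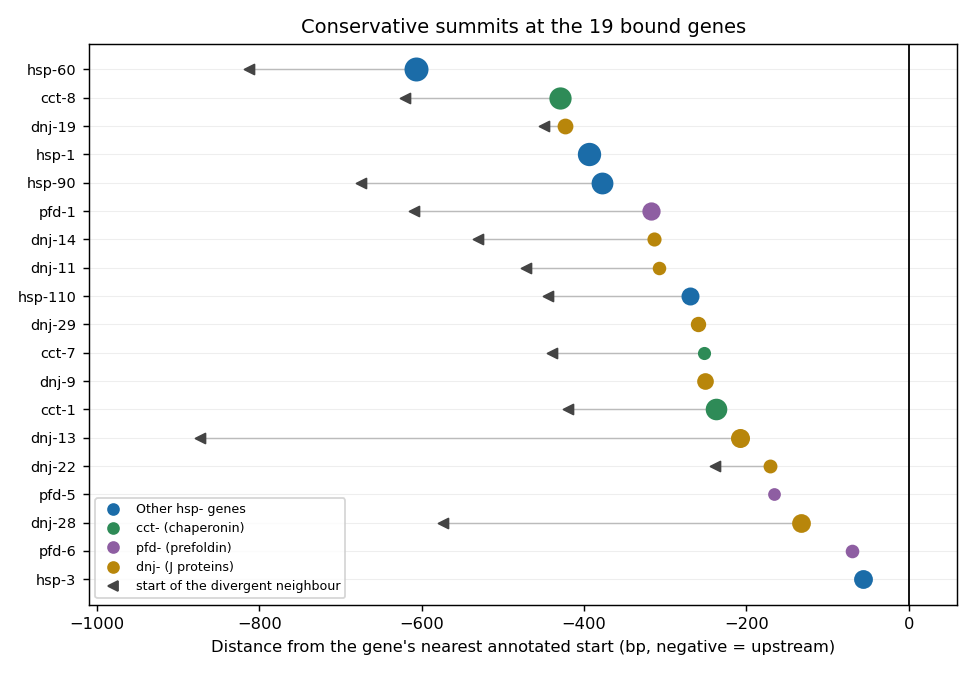
Distance of the conservative summit from the nearest annotated start of each of the 19 bound genes (horizontal axis in bp, upstream to the left); circle area grows with signal and triangles mark the start of the divergent neighbour, left out at dnj-29, which has more than 1 further gene in reach. Every circle lies left of 0, from 56 bp at hsp-3 to 607 bp at hsp-60.

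Most of these summits could belong to more than 1 gene. Of the 19, 16 (84.2%) lay in the window of another protein-coding gene too, against 56.4% of the other bound genes. Only hsp-1, hsp-3 and dnj-9 had a summit of their own. The hsp-60 summit (chromosome III, 1619009 to 1619252) was 206 bp from the start of Y22D7AL.10, the Hsp10 gene whose product forms the lid of the same mitochondrial chaperonin, and 607 bp from hsp-60. At hsp-110 (chromosome III, 8447099 to 8447240) it was 175 bp from rpn-3, which encodes a proteasome subunit, and 269 bp from hsp-110. At cct-1 (chromosome II, 8185109 to 8185322) it was 183 bp from mig-5, a Dishevelled gene of Wnt signalling, and 237 bp from cct-1, and at cct-8 (chromosome IV, 1094284 to 1094483) 191 bp from Y55F3AR.2 and 430 bp from cct-8. For 11 of the 19 another gene was nearer, whereas 71% of the other bound genes were the nearest to their summit. When each summit counted only for the nearest gene, 8 members were bound (12.3%), against 3.33% of all genes. These were hsp-1, hsp-3, pfd-5, pfd-6, dnj-9, dnj-13, dnj-28 and dnj-29, and no chaperonin gene remained.

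Promoter layout was compared between the members and the other genes. A divergent neighbour with its start within 1000 bp upstream was present at 31 of the 65 (47.7%), against 18.6% of the other protein-coding genes. Of these 31 members 14 were bound (45.2%), against 455 of 3698 other divergent genes (12.3%). Among the 12 members without a divergent neighbour that follow a gene on the same strand within 500 bp, as in an operon, 2 were bound (16.7%, against 3.16% of such genes), and among the 22 with neither layout 3 were bound (13.6%, against 2.83%). The members' share was the higher in each layout, though with 12 and 22 genes the last comparisons rest on few. Within classes, 3 of 6 divergent chaperonin genes, 3 of 4 constitutive genes and 7 of 13 J protein genes were bound, but 0 of the 6 divergent hsp-16 genes. These hsp-16 genes share promoters in pairs and are not separate cases.

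**Figure D4:**
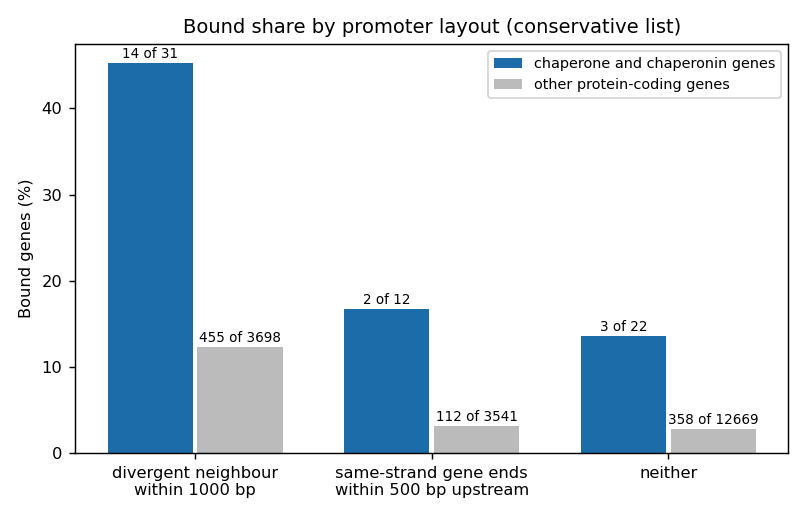
Percent of genes bound (vertical axis) among genes with a divergent neighbour, other genes that follow a gene on the same strand and genes with neither, for the 65 chaperone and chaperonin genes and for the other protein-coding genes, with counts above the bars. The members' share is above that of the other genes in each layout, with 14 of 31 bound at divergent promoters.

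Noncoding genes also lay near several of the summits. An annotated noncoding RNA gene was within 250 bp of 8 of the 19 (42.1%), against 14.9% of the 710 promoter peaks of the list. The 8 genes were hsp-1, hsp-110, cct-7, cct-8, pfd-1, dnj-13, dnj-14 and dnj-19, and the RNAs were of the unclassified ncRNA type. None of the 19 was within 250 bp of a tRNA, snoRNA or snRNA gene, against 5.77% of promoter peaks.

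Heat shock elements are known from chaperone promoters and were compared with the peaks. A run of at least 3 alternating GAA and TTC units spaced by 2 bases, searched on both strands from 1000 bp upstream to 200 bp downstream of the gene's 5′ end, was present at 16 of the 65 genes (24.6%), against 7.67% of all protein-coding genes. All 7 stress-induced genes held one, as did 5 of 15 constitutive genes, 1 of 6 prefoldin genes, 3 of 29 J protein genes and none of the 8 chaperonin genes. The hsp-16 genes among the 7 share promoters in divergent pairs and are not separate cases. In a narrower window, 250 bp upstream to 50 bp downstream, 11 of 65 (16.9%) held a run, against 1.97%. In the wide window a run was present at 6 of the 19 bound members (31.6%) and at 10 of the 46 others (21.7%). In the narrower window the order was reversed, with 3 of 19 (15.8%) and 8 of 46 (17.4%). Of the 16 genes with a run in the wide window 6 were bound, hsp-1, hsp-60, hsp-90, hsp-110, pfd-5 and dnj-13, and 10 were not, the 7 stress-induced genes with hsp-6, dnj-12 and dnj-24. A match describes these letters only and is not a known binding site.

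**Figure D5:**
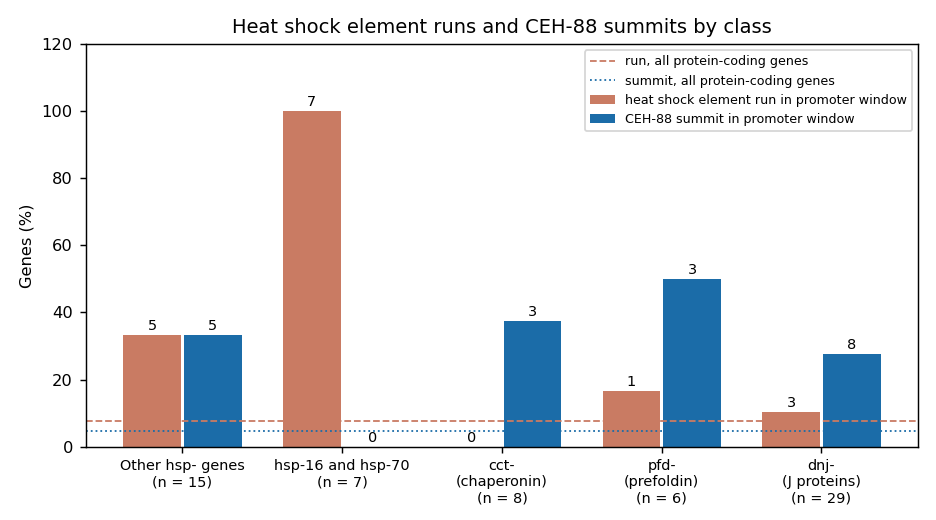
Percent of genes in each class (vertical axis) with a run of at least 3 heat shock units and with a CEH-88 summit. Counts stand above the bars, and lines give the shares of all protein-coding genes. Runs were searched in the window around the gene's 5′ end, and summits in the windows around any annotated start. The hsp-16 and hsp-70 genes have a run in 7 of 7 and a summit in 0, and the chaperonin genes have 0 runs and 3 summits.

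Within the 100 bases at each of the 19 summits, of which the windows printed above are a part, GAANNTTC was present at 5 of the 19 (26.3%) and TTCNNGAA at 3 (15.8%), against 4.78% and 4.49% of the 691 other promoter peaks. Either pair was present at 6 (31.6%), hsp-1, hsp-90, hsp-110, cct-7, pfd-5 and dnj-13, against 59 of 691 (8.54%). The 2 words overlap in a run, as at hsp-110, the only summit with 3 units (5.26%, against 0.724%). The other 13 summits held no pair, among them the strongest at hsp-60 and cct-8. TAATTA and TAATTG, cores that many homeodomain proteins bind, ATCGAT, the core of ONECUT proteins, and TATAAA were each absent from the 19 windows, against 2.75%, 4.05%, 4.63% and 5.5% of the other promoter peaks. With only 19 windows, shares this low leave few matches to expect, so these absences do not show depletion. CTGCGTCT was in 1 (5.26%, at hsp-3, against 8.25%) and GAGAGA in 3 (15.8%, against 16.5%). In whole promoter windows CTGCGTCT was found at 12 of the 65 genes (18.5%, against 8.63% of all), 6 of them the hsp-16 genes, which share promoters in pairs. G and C made up a median of 50% of the bases at the 19 summits (24% to 66%) and 48% at the others.

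Of 33 further folding genes, all matched in the annotation, 14 were bound (42.4%, against 4.73% of all protein-coding genes). They were listed by function with earlier results of these data known, so the share is only a description of this list. F44E5.4 and F44E5.5 share a peak, and the peak of Y22D7AL.10 is that of hsp-60, so the 14 genes are not separate peaks. Cochaperones of Hsp70 and Hsp90 were among them. bag-1, a nucleotide exchange factor of Hsp70, had 395.6 (rank 59), with 248.2 in replicate 1 and 150.0 in replicate 2. The others were weaker, at 109.5 for sti-1, which links Hsp70 to Hsp90, 110.6 for ahsa-1, which activates the Hsp90 ATPase, 80.5 for unc-23, a BAG-domain gene, and 76.6 for pph-5, a phosphatase that binds Hsp90. In the endoplasmic reticulum, pdi-3, a disulfide isomerase gene, had 188.3, crt-1, the calreticulin gene, 97.1 and enpl-1, the Hsp90 of that compartment, 82.2. sip-1, a small heat shock gene of embryos, had 119.0, ubl-5 of the mitochondrial stress response 84 and the stress regulator gene atf-6 68.3. With F44E5.4, F44E5.5 and Y22D7AL.10, described above, these are the 14.

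Among the 19 further folding genes without a conservative summit were regulators of the stress responses, hsf-1 and hsb-1, the gene of its binding protein, xbp-1, ire-1 and pek-1 of the unfolded protein response, and atfs-1 and dve-1 of its mitochondrial counterpart, while atf-6 and ubl-5 were bound. Cochaperone genes without one were cdc-37, unc-45, daf-41, chn-1 and sgt-1. stc-1, cnx-1, pdi-1, pdi-2, pdi-6, lonp-1 and clpp-1 completed the 19 unbound genes of the list, of which pdi-6 and clpp-1 had a peak in another list.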

How the data were processed

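ChIP-seq peak lists on assembly ce11 were used as the authors deposited them. Per the file headers, the lists derive from alignments of the replicates and a control; the sources used here name neither aligner nor peak caller. The deposited score, up to 1000, follows reproducibility, the deposited signal is the caller's peak strength, and the deposited −log10 of a q value entered no test. No value was taken from the 8 per-replicate columns of the whole-series ranked lists. Their coordinates served only to choose, among these lists, the one whose input regions best matched the replicates' ranked lists. Of its inputs 68.4% matched replicate 1 and 78.5% replicate 2, so the match was partial. Whole-series scores of members without a peak came from that list. Read depth is unknown, and because the design has 1 group no test was run.

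Summits were joined to Ensembl release 115 genes with Python 3.11.15, intervals came from scipy 1.17.1, and sequence was read with Biopython 1.88. A replicate's value was the strongest overlapping region of its own ranked list. For members without a peak it was the strongest region with a summit in the window. The joins were tested on simulated summits. The 250 bp to 50 bp window was cut from the gene's 5′ end, as no promoter table was used. Alternatives were the other lists, a score of 1000, windows from 500 and 2000 bp upstream, an overlap of 1 bp, the nearest gene, merging within 500 bp and the region with the nearest summit. Text names members with a peak in any list, every hsp-, cct- and pfd- gene, the 5 unbound dnj- genes of highest score and all further folding genes. dnj-24 and unbound folding genes outside that rule were named after their values were seen. Members, classes, gene lists and motifs were chosen with earlier results of these data known.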

Additional observations from a re-analysis of the deposited data

How the results depend on the processing

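The count of 19 bound members was 14 without replicate 1, 20 without replicate 2 and 22 in the second whole-series list, and the core of 13 was in all 4 lists. Without replicate 1 the J protein genes fell from 8 to 5, and without replicate 2 they numbered 10. Counting a summit only for its nearest gene left 8 members, with 2 constitutive hsp-, 0 chaperonin, 2 prefoldin and 4 J protein genes. A score of 1000 left 17 (without cct-7 and pfd-5), a window from 500 bp upstream 18 (without hsp-60), one from 2000 bp 19, an overlap of 1 bp 20 (with hsp-6) and merging within 500 bp 19. Over the settings as a whole the count ran from 8 to 22. Under all 9 of these settings hsp-1, hsp-3, dnj-9, dnj-13, dnj-28 and dnj-29, 6 genes, were bound and the stress-induced count was 0. The median log2 ratio of the replicates was 0.57 with either rule for a replicate's region. No paired analysis was possible because there is 1 group. Read depth is unknown, so weak signal at the unbound members cannot be told apart from too few reads.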

Other observations

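ATCGAT was found between 1000 bp upstream and 200 bp downstream of the gene's 5′ end at 19 of 29 J protein genes (65.5%), 2 of 15 constitutive hsp- genes (13.3%), 1 of 8 chaperonin genes (12.5%), 2 of 6 prefoldin genes (33.3%) and 0 of 7 stress-induced genes, against 34.7% of all protein-coding genes. In the window from 250 bp upstream to 50 bp downstream it was at 4 of 29 J protein genes (13.8%), against 12.3% of all, so the higher share was not present there. ATCGAT was 1 of 8 motifs counted, and no test was made.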
